A study of Mus musculus with 4 samples.

Results

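The 10 genes described here form the circadian clock set of the mouse: the activators Arntl and Clock, the repressors Per1, Per2, Per3, Cry1, Cry2, Ciart and Nr1d1, and the output factor Dbp. They were chosen by name and not by a threshold on measured values, though with earlier results of these data known, and each matched 1 of the 55471 Ensembl gene rows of the deposited count table through GENCODE M21 on GRCm38. The samples were 4 poly(A) RNA-seq libraries of CD11b-positive cells, which the series title calls repopulated microglia, taken from the brains of mice by magnetic cell separation. They make up 1 group. The mice, aged 10 to 13 weeks and kept in a 12 h day and 12 h night rhythm, received the CSF1R inhibitor PLX5622 for 7 days and were then left without it for 10 days, 17 days in all. Signalling through CSF1R keeps microglia alive. The labels give no strain, genotype, hour of death or animal per library, so each p-value speaks of the spread among these 4 samples alone, and that spread may be technical. No untreated sample was analysed here, so no effect of the drug is estimated and survivors of the drug cannot be told apart from returned cells.

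The mammalian clock is a feedback loop of transcription. CLOCK and ARNTL (also called BMAL1) bind E-box elements as a pair and switch on the Per, Cry, Nr1d1, Ciart and Dbp genes. PER and CRY proteins then enter the nucleus and block CLOCK and ARNTL, while NR1D1 (REV-ERB alpha) represses Arntl through elements that the ROR receptors use to activate it. In mouse tissues Nr1d1 and Dbp transcripts therefore peak in the light phase, Per transcripts follow towards dusk, and Arntl peaks in the opposite phase. Microglia have a working clock, and in mice its components have been tied to their inflammatory response and synaptic pruning. The question put to these libraries was whether all 4 carried the same balance of clock transcripts. With no labelled hour and no time course, the balance can be compared between libraries, and no hour is assigned to it.

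The libraries held between 23036202 and 24487418 counts. Levels are given in CPM, counts per 1000000 of the library's total after TMM scaling. The 10 microglial markers, P2ry12, Tmem119 and Csf1r among them, summed to between 33990 and 42530 CPM, and 0 of 10 passed the test of spread between libraries. Library 3 stood apart in other cells. Endothelial markers summed to 827, 820, 172 and 700 CPM in libraries 1 to 4, and pericyte and smooth muscle markers to 620, 594, 91.5 and 398 CPM. Choroid plexus markers summed to 15990, 15940, 3318 and 22240 CPM and erythroid markers to 365, 174, 32.5 and 65.8 CPM in the same order. All 26 genes of these lists were lowest in library 3, none of them was at 0 in any library, and 23 passed the test; Flt1, Rgs5, Ttr and Hbb-bs were the highest of the 4 lists. In such bulk samples fewer cells of a type and less RNA per cell cannot be told apart. Beside these, the sums over 4 libraries ran from 202 to 284 CPM for 6 astrocyte markers, 379 to 852 CPM for 6 oligodendrocyte markers, 980 to 1583 CPM for 7 border-associated macrophage markers, 49.5 to 58.8 CPM for 5 monocyte markers, 17.3 to 80.0 CPM for 6 neutrophil markers, 263 to 339 CPM for 5 B cell markers, 7.50 to 19.95 CPM for 6 T and NK cell markers and 16.6 to 27.9 CPM for 7 neuronal markers. Among these lists 4 border-associated macrophage, 2 oligodendrocyte and 2 neutrophil markers passed, and 0 of the others did; the highest genes were Slc1a3, Mbp, Stab1, Ccr2, S100a9, Ighm, Gzma and Map2 in the order of the lists. Of these sums, the oligodendrocyte and neuronal ones were also lowest in library 3. The astrocyte and B cell sums were lowest in library 2, and the others in library 4. As single genes, 4 of 6 astrocyte, 2 of 6 oligodendrocyte and 3 of 7 neuronal markers were lowest in library 3.

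All 10 clock genes were detected in every library, with between 67 and 5348 counts per gene and library. Per1 was by far the most abundant per length. Divided by exonic length, its level averaged 37.0 ± 1.77 CPM per kilobase (SD, n = 4), which was 6.62-fold that of Clock, next in order at 5.59 ± 0.559 CPM per kilobase. Then came Nr1d1 at 4.18 ± 2.09, Dbp at 4.16 ± 0.749, Cry1 at 3.19 ± 0.176, Arntl at 2.75 ± 0.0958, Per3 at 2.565 ± 0.366, Cry2 at 1.76 ± 0.409, Ciart at 1.46 ± 0.2002 and Per2 at 1.39 ± 0.432 CPM per kilobase. Of the 9 neighbouring pairs in this order, 3 did not overlap over the 4 libraries: Per1 lay above Clock, Cry1 above Arntl, and Per3 above Cry2. The other 6 pairs overlapped. Of these, Dbp was above Cry1 in all 4 libraries, Clock above Nr1d1 and Cry2 above Ciart in 3 of 4, and Nr1d1 above Dbp, Arntl above Per3 and Ciart above Per2 in 2 of 4.

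**Figure D1:**
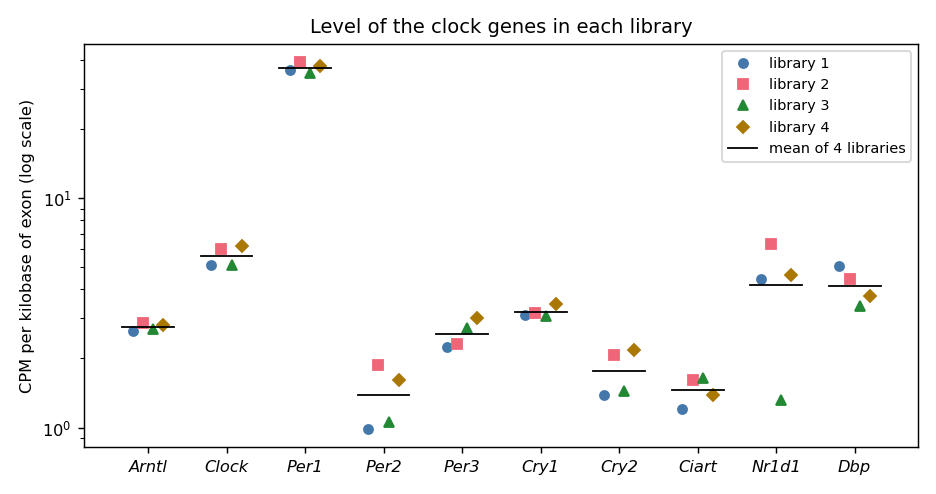
Level of each clock gene in each of the 4 libraries, in CPM per kilobase of exon on a log axis; symbols are libraries and bars are means. Per1 stands above all others at 37.0 CPM per kilobase, and the library 3 symbol of Nr1d1 lies far below the other 3.

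No clock gene passed the threshold of an adjusted p of 0.05 for spread between libraries, and few of all tested genes did. The test, edgeR's goodness of fit to a negative binomial model, asks which genes spread more than genes of their level, and p-values were adjusted by Benjamini-Hochberg over all 14112 genes with enough counts. All 10 clock genes had enough counts, and 0 of 10 passed, against 463 of all tested genes, or 3.28%. At an unadjusted p under 0.05 there was 1 of 10 clock genes, Nr1d1, against 1350 of all 14112 tested genes, a similar share. With edgeR's quasi-likelihood variance 0 of 10 passed and 0 had an unadjusted p under 0.05, against 0 and 658 of all 14112 genes. DESeq2 marked 0 of 10 as dispersion outliers, against 5 of all genes, or 0.0354%. At so few calls over all genes, 3.28% in the goodness of fit included, a 0 of 10 from any of these tests does not set the clock genes apart. The median SD of log2(CPM + 0.5) was 0.188 over the clock genes and 0.214 over all tested genes, and their median deviances were 0.902 and 1.13.

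**Figure D2:**
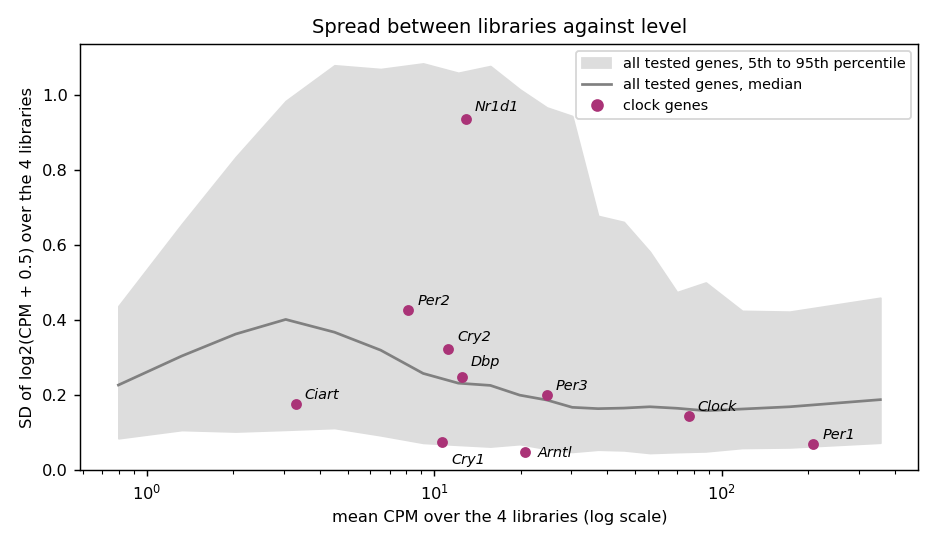
SD of log2(CPM + 0.5) over the 4 libraries against mean CPM on a log axis, with clock genes as points and all tested genes as a median line and a band of the 5th to 95th percentile in 20 bins of level. Nr1d1 lies highest at 0.938, inside the band, whose upper edge is 1.06 in the bin at a median of 12.1 CPM. Arntl, at 0.049, lies lowest of the 10, below the lower edge of 0.069 in the bin at 19.8 CPM.

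Of the activator pair, Arntl varied least of all the clock genes, while Clock varied more than Per1 and Cry1. Arntl, on chromosome 7 from 113207465 to 113314126 on the plus strand (ENSMUSG00000055116), had 19.9, 21.4, 20.3 and 21.2 CPM in libraries 1 to 4. Its highest library exceeded its lowest 1.08-fold, and 1.94% of tested genes had a lower deviance. The SD of its log2 level, 0.049, was below the 0.065 that counting error alone would give at its 460 to 533 counts, and Cry1 was the other of the 2 clock genes for which this held. Clock, on chromosome 5 from 76209868 to 76304792 on the minus strand, had 70.2, 82.0, 70.0 and 84.5 CPM, a 1.21-fold range. Libraries 2 and 4 were the higher pair, and the adjusted p in edgeR was 1 for both genes. Arntl is the clock gene whose start region carries the element that ROR and REV-ERB receptors share, and it is shown for that reason. A search of both strands of RefSeq promoter windows (GRCm38.p6, 250 bases before to 50 after a start) for TAGGTNA found it in no other clock gene with a window and in 8.29% of all 32851 windows. Per2 had no window in that table. The 2 matches in Arntl, in capitals within 30 bases each, lie on the plus strand at chr7:113207494-113207523 and chr7:113207530-113207559:
Arntl first element: tggtcggaaagTAGGTTAgtggtgcgacat
Arntl second element: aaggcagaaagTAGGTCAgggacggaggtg

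The Per genes, which encode the rhythmic partners of CRY in the repressor complex, were present at unequal levels. Per1, on chromosome 11 from 69095217 to 69109960, had 204, 220.2, 197 and 212 CPM. Those values differ 1.12-fold at most, and 6.36% of tested genes had a lower SD. Per2, on chromosome 1 from 91415982 to 91459324, had 5.79, 11.01, 6.21 and 9.45 CPM. Libraries 2 and 4 lay above libraries 1 and 3, by up to 1.90-fold, and this was the widest range among the clock genes other than Nr1d1 (unadjusted p = 0.497, adjusted p = 1 in edgeR). Per3, on chromosome 4 from 151003652 to 151044665, had 21.5, 22.1, 26.0 and 29.0 CPM, with libraries 3 and 4 the higher pair (adjusted p = 1 in edgeR). Per kilobase, Per1 exceeded Per2 26.7-fold and Per3 14.4-fold, between 20.8-fold and 36.6-fold and between 12.5-fold and 16.99-fold over single libraries.

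Per1 is also switched on by stimulation, as an immediate early gene, and by glucocorticoid hormone, so both kinds of genes were set beside it. The 12 immediate early genes, Zfp36 the highest, summed to 13840, 19320, 12860 and 9356 CPM in libraries 1 to 4, and 11 of the 12 were highest in library 2, as Per1 was. Their sum was lowest in library 4, whereas Per1 was lowest in library 3. Of these 12, 5 passed the test, Fosb, a subunit of the AP-1 factor, at 246, 749, 206 and 172 CPM among them (adjusted p = 1.64e-07 in edgeR). The 9 glucocorticoid-induced genes, Sgk1 the highest, summed to 3416, 2449, 2196 and 2002 CPM, highest in library 1, and 3 passed: Tsc22d3, Klf9 and Ddit4. Fkbp5, the chaperone that restrains the glucocorticoid receptor, had 357, 339, 322 and 326 CPM (adjusted p = 1 in edgeR). Per1 itself stayed within 1.12-fold where the summed immediate early genes spanned 2.07-fold and the glucocorticoid-induced genes 1.71-fold. Their part in the level of Per1 was not tested.

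The cryptochromes differed in how evenly they were spread. Cry1, on chromosome 10 from 85131700 to 85185064, had 10.4, 10.5, 10.2 and 11.5 CPM, a range of 1.13-fold. Cry2, on chromosome 2 from 92403646 to 92434043, had 8.73, 13.0, 9.11 and 13.7 CPM, and like Per2 and Clock it was higher in libraries 2 and 4 than in libraries 1 and 3. Neither passed the test (adjusted p = 1 in edgeR for both). Per kilobase, Cry1 exceeded Cry2 1.81-fold on the means and between 1.52-fold and 2.25-fold within single libraries. Ciart, which encodes a repressor of CLOCK and ARNTL also called CHRONO, lies on chromosome 3 from 95878503 to 95882251 and was the lowest in counts, with 67, 84, 84 and 79. Its levels were 2.73, 3.63, 3.70 and 3.14 CPM, with an SD of 0.176 in log2(CPM + 0.5). Counting error alone gives 0.164 on the log2 scale at this depth. That value lacks the added 0.5, which narrows the SD of a gene this low, so these are unlike measures.

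Promoter sequence shows which E-box and D-box letters stand before the start of these repressors. E-boxes (CACGTG) are the sites of CLOCK and ARNTL, and D-boxes (TTATGTAA or TTACGTAA) those of DBP and its relatives. In the RefSeq windows of the 9 clock genes that had one, CACGTG was found in 3 (Per1, Cry1 and Ciart), against 7.15% of all windows. The variant CACGTT was found in 3 (Cry1, Cry2 and Nr1d1), against 4.69% of all windows, and a D-box in 1 (Per3), against 1.06%. The cyclic AMP element TGACGTCA was found in 0 of the 9 genes, against 1.79% of all windows. The 9 genes had 13 windows, so these counts of genes and the shares of single windows are unlike measures. Both strands were read, none of these letter strings contains another, and a match describes letters and not an occupied site. The windows of Clock and Dbp held none of the strings. Ciart is shown because it holds 3 E-boxes, Per1 because it is the most abundant clock gene, and Per3 because it holds a pair of D-boxes; capitals mark the matches, and the stretches run 5′ to 3′ and are cut short of the gene's annotated exons. The Ciart and Per3 stretches lie directly upstream of the annotated gene, and the Per1 stretch lies within the annotated gene, before an internal start. They are at chr3:95882252-95882478 (minus strand), chr11:69098699-69098947 (plus strand) and chr4:151044666-151044915 (minus strand) of GRCm38.p6:
Ciart: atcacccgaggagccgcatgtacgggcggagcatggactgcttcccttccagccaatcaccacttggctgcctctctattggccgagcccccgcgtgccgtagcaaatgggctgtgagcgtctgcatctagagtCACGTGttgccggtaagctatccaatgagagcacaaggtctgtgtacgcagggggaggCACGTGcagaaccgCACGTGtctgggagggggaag
Per1: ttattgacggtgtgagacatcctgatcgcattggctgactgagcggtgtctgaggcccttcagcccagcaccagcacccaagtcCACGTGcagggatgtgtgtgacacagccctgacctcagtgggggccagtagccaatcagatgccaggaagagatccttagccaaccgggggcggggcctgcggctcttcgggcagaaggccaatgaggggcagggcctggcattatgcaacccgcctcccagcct
Per3: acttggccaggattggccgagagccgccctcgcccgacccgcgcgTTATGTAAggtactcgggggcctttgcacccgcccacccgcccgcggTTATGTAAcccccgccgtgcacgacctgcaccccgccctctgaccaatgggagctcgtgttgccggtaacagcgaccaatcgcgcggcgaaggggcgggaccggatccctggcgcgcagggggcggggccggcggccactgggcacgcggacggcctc

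Nr1d1, the REV-ERB alpha gene, had the largest spread of the 10 clock genes, with library 3 lowest. It lies on chromosome 11 from 98767932 to 98775333 on the minus strand (ENSMUSG00000020889) and had 336, 451, 92 and 357 counts, or 13.7, 19.5, 4.05 and 14.2 CPM, in libraries 1 to 4. Library 3 was 3.90-fold below the mean of the other 3 libraries, and the highest library exceeded it 4.81-fold. Under the other 3 scalings of the libraries the first of these values was 3.79-fold to 4.28-fold. The goodness of fit in edgeR gave an unadjusted p of 0.00756 and an adjusted p of 0.151, so Nr1d1 did not pass over all genes, and 94.98% of tested genes had a lower deviance. Without library 3 the SD of its log2 level was 0.272, against 0.938 with it, and its unadjusted p was 0.436. Over the other alternatives in which Nr1d1 kept library 3, its adjusted p ran from 0.121 to 0.889. Its promoter is shown for comparison with those above, with the CACGTT match in capitals (read here on the opposite strand as AACGTG), at chr11:98775378-98775627 on the minus strand of GRCm38.p6:
Nr1d1: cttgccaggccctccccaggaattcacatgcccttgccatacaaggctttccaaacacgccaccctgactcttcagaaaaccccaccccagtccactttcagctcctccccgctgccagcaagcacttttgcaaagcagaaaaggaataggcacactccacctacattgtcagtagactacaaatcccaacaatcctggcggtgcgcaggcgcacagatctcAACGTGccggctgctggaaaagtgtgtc

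The low value of Nr1d1 fell in the library that was also low in vascular and choroid plexus genes. Set against the other 3 libraries' mean, library 3 was 3.90-fold lower for Nr1d1, 4.54-fold for the summed endothelial markers, 5.87-fold for pericyte and smooth muscle markers, 5.44-fold for choroid plexus markers and 6.21-fold for erythroid markers. For the oligodendrocyte and neuronal sums, also lowest in library 3, the values were 1.68-fold and 1.59-fold. Their part in the result was not tested. Of the 14111 other tested genes, the 3 closest to Nr1d1 in pattern were Nkd1, Nid1 and Erg, the last an endothelial transcription factor, with root mean square differences of 0.034, 0.046 and 0.057 in centred log2(CPM + 0.5) over the 4 libraries. Erg had 14.1, 18.4, 3.87 and 14.6 CPM. Nr1d1 was added to this search after its values were seen, and these 3 are the smallest distances of 14111 over only 4 libraries, with no test. Its 3′ end also overlaps exons of Thra, the thyroid hormone receptor alpha gene on the opposite strand, over 263 bases or 8.55% of its exonic length. Thra had 28.7, 27.8, 11.9 and 30.8 CPM, lowest in library 3 as well (unadjusted p = 0.0387, adjusted p = 0.443 in edgeR). The strand setting of the counting is not given in the sources used here, so reads of the overlap may belong to either gene.

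**Figure D3:**
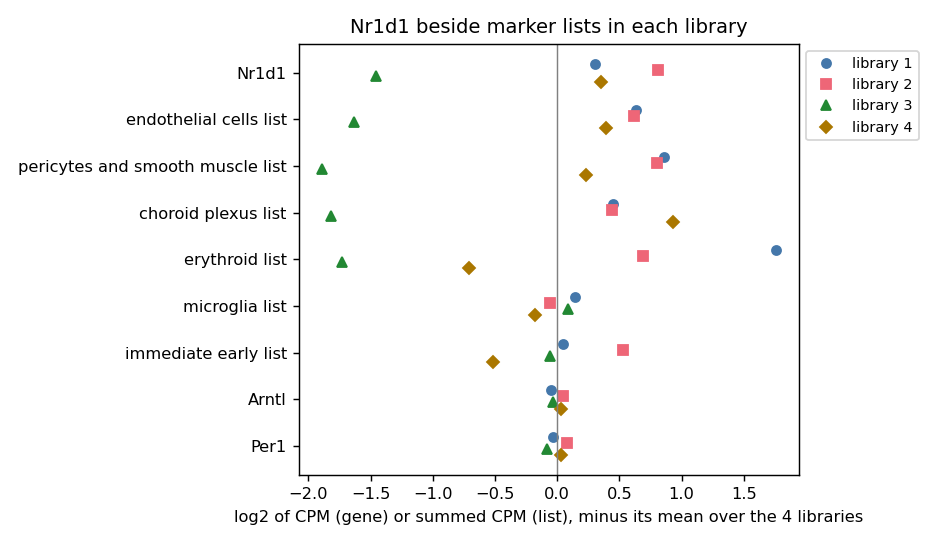
Level of Nr1d1, Arntl and Per1 (CPM) and of marker lists (summed CPM) in each library, as log2 minus the mean over the 4 libraries. Library 3 lies lowest for Nr1d1 (-1.46) and for the endothelial (-1.63), pericyte, choroid plexus and erythroid lists, and near 0 for Arntl, Per1 and the microglia list.

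The paralog of Nr1d1 did not share its range. Nr1d2, the REV-ERB beta gene, had 83.3, 74.5, 57.0 and 67.3 CPM, a 1.46-fold range with library 3 lowest (adjusted p = 1 in edgeR). Per kilobase Nr1d2 exceeded Nr1d1 3.12-fold on the means, and between 2.18-fold and 8.01-fold within single libraries, widest in library 3. As a ratio of counts, Nr1d1 to Nr1d2 was -2.60, -1.93, -3.82 and -2.25 on the log2 scale. Arntl, the gene that both receptors repress, stood at 20.3 CPM in library 3, between its values in libraries 1 and 4.

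Dbp, a transcription factor of the PAR bZIP family that carries the clock to D-box genes, had 15.2, 13.3, 10.1 and 11.2 CPM in libraries 1 to 4. It lies on chromosome 7 from 45705088 to 45710203. Library 1 was highest and library 3 lowest, 1.499-fold apart, and the gene did not pass (unadjusted p = 0.801, adjusted p = 1 in edgeR). Of its exonic length, 18.0% overlaps exons of Sphk2, a sphingosine kinase gene on the opposite strand, which had 60.2, 64.6, 65.6 and 60.8 CPM. Since Sphk2 was the more abundant and the strand setting is not known, the level of Dbp is uncertain. The 3 tested genes closest to Dbp in pattern were Pdp1, Stat4 and Mgll (root mean square differences of 0.0085, 0.0106 and 0.0129 over 4 libraries). These too carry no test. Those closest to Arntl were Copg1, Aco1 and Slc9a5 (0.0029, 0.005 and 0.007), and those closest to Per1 were Dgat1, Iqcc and Tef (0.0074, 0.0103 and 0.0106).

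**Figure D4:**
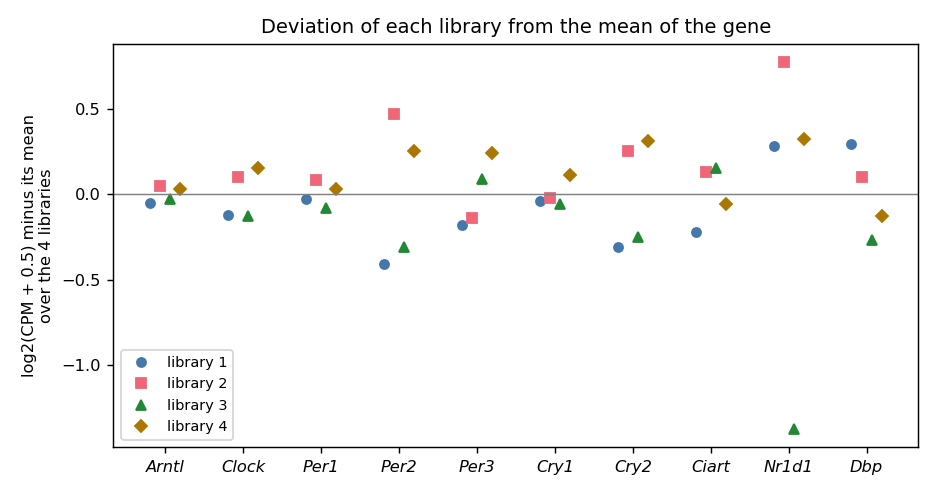
Deviation of each library from the gene's mean over the 4 libraries, in log2(CPM + 0.5). Per2, Cry2 and Clock are higher in libraries 2 and 4 than in libraries 1 and 3, and Nr1d1 in library 3 is the farthest point, at -1.37.

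The balance of the loop was measured within each library, where no scaling between libraries enters. Dbp and Arntl, which peak in opposite phases, stood at log2 count ratios of -0.39, -0.69, -1.0 and -0.92 in libraries 1 to 4, with exact (Clopper-Pearson) 95% intervals of -0.59 to -0.19, -0.90 to -0.48, -1.23 to -0.77 and -1.13 to -0.71. Intervals here and below reflect counting error only, as PCR copies of a molecule could not be told from separate molecules. They also leave out the overlaps of Dbp with Sphk2 and of Nr1d1 with Thra. The ratios of Dbp and Nr1d1 are therefore as uncertain as their levels. The ratio spanned 0.61 on the log2 scale over the libraries, 0.31 without library 1. The interval of library 1 overlapped that of library 2, and lay above those of libraries 3 and 4.

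The same ratio gave different ranges for the other clock genes. Per1 to Arntl was nearly constant, at 3.35, 3.36, 3.28 and 3.33, a range of 0.08. Cry1 to Arntl spanned 0.15, Clock 0.21, Per3 and Ciart 0.41 each, Cry2 0.56 and Per2 0.82. Per2 to Arntl was -1.78, -0.96, -1.71 and -1.16, so the intervals of library 2 (-1.18 to -0.74) and library 1 (-2.06 to -1.51) lay apart. Nr1d1 to Arntl was -0.54, -0.14, -2.32 and -0.58, a range of 2.18, which became 0.44 without library 3. In library 3 the interval was -2.66 to -2.0. Nr1d1 was low there against every clock gene it was set beside: its ratio to Ciart was 0.13 in library 3, and 2.33, 2.42 and 2.18 in libraries 1, 2 and 4, and its ratio to Per3 was -2.68 in library 3, and -0.65, -0.18 and -1.03 in the others.

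**Figure D5:**
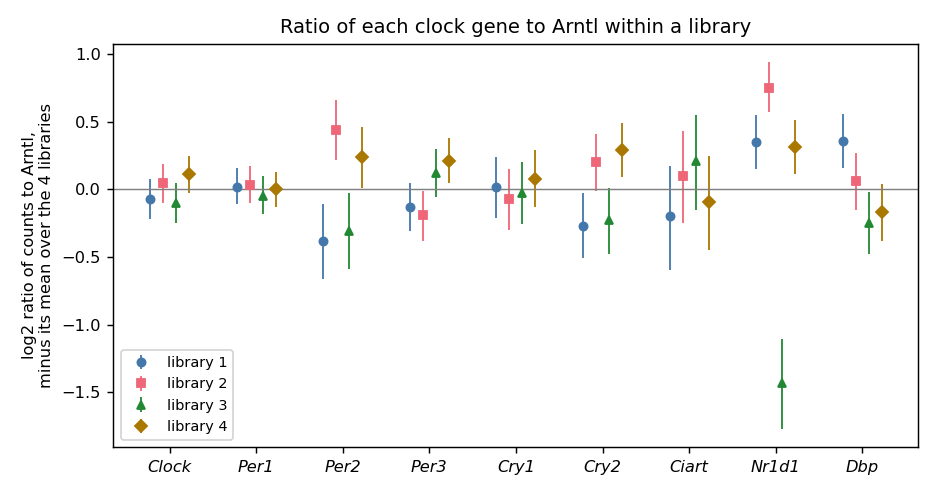
log2 ratio of the counts of each clock gene to those of Arntl within a library, minus its mean over the 4 libraries; bars are exact 95% intervals of counting error. Per1, Cry1 and Clock stay near 0 in all 4 libraries, Per2 spans 0.82, and Nr1d1 spans 2.18 through library 3.

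Taking the arms as wholes, the mean log2(CPM + 0.5) of Nr1d1, Dbp, Ciart, Per1, Per2 and Per3 minus that of Arntl and Clock was -1.20, -1.08, -1.46 and -1.22 in libraries 1 to 4. The libraries thus spanned 0.38, or 1.30-fold, with library 3 lowest, and 0.14 without library 3. With Nr1d1 left out, a choice made after its values were seen, the contrast was -1.16, -1.08, -1.14 and -1.16 and spanned 0.08. Every one of the 10 clock genes was lowest in library 1 or library 3, which held for 60.3% of tested genes. Of the 10, 8 were highest in library 2 or library 4, against 37.5% of tested genes. The exceptions were Dbp, highest in library 1, and Ciart, highest in library 3. These pairs of libraries were not planned and were read from the values themselves, so the counts carry no test. Libraries 2 and 4 were also the most alike over all genes, with a chi-square per gene of 20.8, against 64.6 to 103 for other pairs. Libraries 1 and 3 were the least alike of all pairs, at 103. When libraries were scaled to the microglial markers, which moves all levels by -0.14, 0.06, -0.09 and 0.18 on the log2 scale in libraries 1 to 4, the counts were 10 and 10, against 84.5% and 72.9% of tested genes, and with total counts they were 10 and 9, against 66.8% and 45.8%.

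The wider pathway was measured with 23 further genes, of which 20 had enough counts to be tested. In edgeR 0 of 20 passed and 0 had an unadjusted p under 0.05, against 463 and 1350 of all tested genes. The quasi-likelihood variance and DESeq2 also gave 0, where they called 0 and 5 of all genes. Among other activators, Npas2, which can stand in for CLOCK, had 1.84, 2.38, 1.37 and 3.45 CPM, and per kilobase Clock exceeded it 11.9-fold. Rora, the highest of its list per kilobase and an activator of Arntl, had 17.0, 17.97, 12.2 and 18.97 CPM (adjusted p = 1 in edgeR). Arntl2, a paralog of Arntl, and Rorb, another ROR gene, were too low to be tested, with 7 to 28 and 5 to 25 counts, and both were lowest in library 3, as were Npas2 and Rora.

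Among other repressors the level of Bhlhe41 was the highest, at 211, 258, 257 and 214 CPM. BHLHE41 and BHLHE40 compete with CLOCK and ARNTL for E-boxes. Bhlhe40 had 13.9, 16.9, 6.12 and 13.4 CPM, lowest in library 3 (unadjusted p = 0.143, adjusted p = 0.977 in edgeR). Per kilobase Bhlhe41 lay close to Per1, at 34.99 ± 3.875 CPM per kilobase (SD, n = 4), and 13.1-fold above Bhlhe40. Of the exonic length of Bhlhe41, 19.05% overlaps the predicted gene Gm43909 on the opposite strand. Nfil3, which represses D-box genes, had 12.8, 9.68, 11.1 and 13.3 CPM (adjusted p = 1 in edgeR).

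Of the output factors, Tef, a relative of DBP, had 84.5, 89.8, 81.3 and 88.2 CPM, a 1.10-fold range, and per kilobase exceeded Dbp 2.63-fold. The remaining relative, Hlf, had 17.4, 11.2, 4.84 and 11.6 CPM, the smallest unadjusted p of these 20 genes (0.0594, adjusted p = 0.586 in edgeR), with library 3 lowest. Usp2, a deubiquitinase under clock control, was the highest output gene per kilobase and had 163, 162, 149.9 and 158 CPM. Of the 6 output genes 5 were lowest in library 3 (4 with DESeq2's size factors, where Tef was lowest in library 1), against 29.2% of tested genes. The 7 genes that set the stability of PER and CRY were the most even of these lists, with a median SD of 0.109 on the log2 scale. Csnk1e, the casein kinase that marks PER for breakdown, led them at 363, 333, 334 and 302 CPM, or 50.5 ± 3.78 CPM per kilobase (SD, n = 4), 1.36-fold above Per1.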

How the data were processed

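Per the labels' protocols, poly(A) RNA was enriched from 300 ng of total RNA and 4 directional libraries of 1 group were sequenced. The authors deposited raw counts per Ensembl gene. The submitters' processing notes name GRCm38, featureCounts 1.6.5, STAR 2.7.2b and bcl2fastq 2.20.0.422. The strand setting, the annotation release and the handling of multi-mapping reads are not stated in those sources. Symbols, coordinates and exonic lengths came from GENCODE M21, which matched 55230 of 55471 identifiers.

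CPM used TMM factors (edgeR 4.0.16, R 4.3.3). Genes kept by filterByExpr were tested with an intercept-only fit, its deviance set against a chi-square on the trended dispersion, since the quasi-likelihood F-test needs a coefficient; the code was tested on simulated data. DESeq2 1.42.0, quasi-likelihood variance, other scalings, no filter and left-out libraries were alternatives. Chi-square per gene between libraries was 20.8 to 103, so none was a duplicate. The members and lists were chosen with earlier results of these data known. All members are named. Of pathway lists, the highest gene per kilobase and 6 set genes are named. Of marker and stimulus lists, sums, calls and the highest gene are given; further genes, Hlf, Fosb, Fkbp5 and the glucocorticoid-induced genes that passed, were picked after their values were seen. Some genes of these lists are not reported here by name.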

Additional observations from a re-analysis of the deposited data

Results flagged for a closer look

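One of 36 values examined, over the clock genes, the pathway genes and 3 contrasts, had a library apart from the other 3 by Dixon's test, which sets the gap against the range and not against the spread of other genes. Fbxw11, a ubiquitin ligase subunit that acts on PER proteins, had 114.9, 121.7, 122.2 and 122.2 CPM in libraries 1 to 4, and the gap from library 1 to the nearest other library was 0.936 of the whole range on the log2 scale, above the 95% critical value of Dixon's test for 4 samples. The range itself was 1.06-fold, and chance alone marks about 1 in 20 such groups. Cry1 gave 0.772 and Nr1d1 0.770, both below that value.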

How the results depend on the processing

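The count of clock genes past the threshold was 0 under every alternative run, and all 90 adjusted p-values of single clock genes under alternatives and all 50 mean levels kept their side of the threshold or stayed within 1 SD. Leaving out 1 library cannot move a mean of so few libraries by 1 SD, so those checks could not fail. Nor could those with the quasi-likelihood variance, where 0 of all genes passed. DESeq2 gives no adjusted p for spread, so none was compared. The count over all genes, 463 in edgeR, was 0 with the quasi-likelihood variance (658 at an unadjusted p under 0.05, smallest adjusted p 0.889) and 5 with DESeq2 dispersion outliers, and ran from 106 to 425 with 1 library left out, lowest without library 3. The range of the Dbp to Arntl log2 ratio, 0.61, was 2.18 with Nr1d1 in place of Dbp, 1.35 with Npas2 in place of Arntl, and 0.31 to 0.61 with 1 library left out. The range of the arm contrast, 0.38, was 0.08 without Nr1d1 (chosen after seeing the data) and 0.14 to 0.38 with 1 library left out, 0.14 being without library 3. The first 2 of these moves come from other tests, and the others from other genes or fewer libraries; further causes were not tested. Depth limits Ciart most, at 67 to 84 counts. No paired analysis was possible because the libraries form 1 group.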
